A study of Homo sapiens with 24 samples.

Results

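The genes described here are the expressed members of the ZNF zinc finger series in MB468 cells and in a clone derived from them. They were chosen as rows of the count table whose symbol is ZNF followed by digits alone and whose mean over the 24 libraries was at least 10 CPM (counts per 1000000 gene counts, without the spike-in RNAs). The rule kept 226 of the 476 ZNF rows among 26645 genes, and the remaining 250 fell below it. The members were thus selected on the mean level of each gene, with no comparison between groups. The last members inside the threshold were ZNF846, ZNF773 and ZNF654, at mean levels of 10.04, 10.19 and 10.19 CPM, and the first ZNF genes outside it were ZNF581, ZNF35 and ZNF616, at 9.97, 9.82 and 9.68 CPM.

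Most ZNF genes encode proteins with tandem C2H2 zinc fingers, short folds held by a zinc ion that read DNA bases in series. Many also carry a KRAB box, which binds the corepressor TRIM28 and through it brings the histone methyltransferase SETDB1 and HP1 proteins to the bound site, where the chromatin is silenced. These KRAB genes lie largely in clusters on chromosome 19 and many of them bind transposable elements. Transcripts of the family are known as short-lived, but decay was not measured here, and each value below is a level.

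MB468 is a triple-negative breast cancer cell line that stops proliferating when methionine in the medium is replaced by its precursor homocysteine, and MB468res-R8 (R8) is 1 clone of it that had regained growth in homocysteine. Both lines were sampled in Met+ medium with 100 µM methionine at 0 h and after 0.5, 2 and 12 h in Met-Hcy+ medium, which held 370 µM DL-homocysteine and no methionine, with 3 samples per line and time. No Met+ samples from the later times were analysed here, so the change of medium and the time since it cannot be told apart, and R8 stands for a single clone. The labels call the samples replicates and name no separate cultures, so the p-values measure the spread between these samples.

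The libraries held 11713037 to 36402932 counts in genes, with a median of 20452797, and no member had fewer than 26 counts in any of them. Epithelial markers were high throughout (EPCAM 296 to 428 CPM and CDH1 249 to 434 CPM), whereas the leukocyte marker PTPRC did not exceed 0.192 CPM. Of the receptors that define triple-negative tumours by their lack, PGR was at 0 in 18 of 24 libraries, but ESR1 was at 4.07 to 22.1 CPM and ERBB2 at 37.5 to 94.9 CPM. The fibroblast gene COL1A1 was at 15.5 to 72.6 CPM, while COL1A2 was at 0 in 22 libraries. The library of MB468 at 2 h, replicate 2, stood apart in RNAs without poly(A) tails: RN7SK reached 687 CPM there against at most 9.81 CPM in the other 23 libraries. Counts of members called at 2 h are therefore also given without it, and no call of a named member was lost without it. In bulk samples, fewer cells with a transcript and less of it per cell cannot be told apart.

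The members differed from other expressed genes in several ways that the rule did not use. Of the 225 that the annotation holds (ZNF788 was not among them), 94, or 41.8%, lie on chromosome 19, against 5.81% of the other genes with a mean of at least 10 CPM. A search of the annotated proteins found a KRAB pattern in 119 members, of which 74 lie on chromosome 19, and none in 106. The number of C2H2 patterns had a median of 12 in the proteins with a KRAB pattern and of 7 in those without, with a highest value of 40, and 5 members (ZNF185, ZNF330, ZNF703, ZNF839 and ZNF862) had none that fits the pattern. The transcripts were long and poor in GC, with medians of 4401 bases and 43.9% against 3509.5 bases and 47.6% for the other expressed genes. Despite their kinship, 10 members alone shared at least 20% of their 100-base windows with another gene, while 32 had at least 20% of their exon bases over another gene, 21 of them over one on the opposite strand, and the libraries do not keep the strand.

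Promoters of the members also had sequence in common. RefSeq promoter windows of GRCh38.p14, 250 bases before to 50 bases after each start, were found by symbol for 195 of 226 members, with 256 windows in all. The letters CCGGAAG, a core bound by ETS factors, occurred on either strand in 34.8% of the member windows, in 10.3% of all 35116 windows and in 17.6% of the windows of the other expressed genes. The share was 43.4% for KRAB members on chromosome 19. Among members called higher in MB468 at 12 h it was 34.6% and among the other members 35.4%. CCAAT occurred in 36.7% of the member windows, 34.6% of all windows and 34.9% of those of the other expressed genes. The full CRE, TGACGTCA, occurred in 4.30%, 1.85% and 2.95% of these, and its shorter form TGACGT, which the full one contains, in 11.7%, 7.98% and 10.96%. CACGTG (E-box), TGANTCA (AP-1) and TGATGNAA (CHOP-ATF) occurred in 5.47%, 5.86% and 1.17% of the member windows, against 7.26%, 7.71% and 3.62% of all windows and 9.63%, 5.05% and 1.97% of those of the other expressed genes. Such a match is a string of letters in this window and not a measured binding site.

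The 150 bases before the start are given for 5 members of the results, chosen because these bases hold a match: ZNF48 and ZNF628, with large rises in MB468 at 12 h that R8 did not share, ZNF14, which had already risen at 2 h, and ZNF593 and ZNF598, which work at the ribosome. Each runs 5′ to 3′ on the strand of its gene, and capitals mark matches to the motifs above: CCGGAAG in ZNF48, CCAAT or its reverse complement in ZNF628 and ZNF14, and TGACGT, once within TGACGTCA, in ZNF593 and ZNF598. The same stretch held no match in the windows of ZNF420, ZNF461, ZNF146, ZNF639, ZNF217 and ZNF207, nor at a further start of ZNF48. ZNF574 and ZNF331 are not printed but held matches at some of their starts. These were the reverse complement of CCAAT in both, and TGAGTCA (AP-1) and TGACGT in ZNF331.
ZNF48 (chr16:30378162-30378311, plus strand): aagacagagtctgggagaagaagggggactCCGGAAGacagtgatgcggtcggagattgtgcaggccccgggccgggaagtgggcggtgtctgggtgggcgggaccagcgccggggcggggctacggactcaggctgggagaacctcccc
ZNF628 (chr19:55476467-55476616, plus strand): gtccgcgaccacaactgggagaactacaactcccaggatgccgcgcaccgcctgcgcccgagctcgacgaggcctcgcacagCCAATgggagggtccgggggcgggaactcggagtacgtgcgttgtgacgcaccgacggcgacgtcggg
ZNF14 (chr19:19733113-19733262, minus strand): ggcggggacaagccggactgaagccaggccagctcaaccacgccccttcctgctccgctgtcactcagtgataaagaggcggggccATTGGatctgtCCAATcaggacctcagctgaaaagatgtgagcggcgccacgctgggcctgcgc
ZNF593 (chr1:26169758-26169907, plus strand): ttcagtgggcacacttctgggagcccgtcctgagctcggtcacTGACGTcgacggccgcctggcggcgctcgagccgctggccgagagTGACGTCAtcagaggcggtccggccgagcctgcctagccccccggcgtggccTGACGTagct
ZNF598 (chr16:2009822-2009971, minus strand): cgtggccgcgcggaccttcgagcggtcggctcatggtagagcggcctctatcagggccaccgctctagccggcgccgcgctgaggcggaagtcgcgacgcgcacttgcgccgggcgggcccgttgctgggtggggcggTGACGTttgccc

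Mean levels of the members had a median of 20.4 CPM and a highest value of 201 CPM. On the scale of CPM per kilobase of transcript, which allows genes to be compared, ZNF593 was highest with 55.0, followed by ZNF146 with 52.3, ZNF664 with 46.6 and ZNF706 with 40.02. ZNF593 encodes a factor of 60S ribosomal subunit assembly, but all of its exon bases lie over the antisense gene ZNF593OS, so that its value cannot be separated from that of its partner. The levels in each group are given below as CPM scaled by the trimmed mean of M values (TMM CPM), and 169 members had a mean of at least 10 on this scale in each of the 8 groups. ZNF699 and ZNF788 passed the threshold through the MB468 libraries. For 18 members the mean falls below 10 CPM when 1 of the 8 groups is left out. For 16 of these, ZNF420, ZNF461, ZNF628, ZNF513, ZNF426 and ZNF846 among them, leaving out MB468 at 12 h does so, and the rise of such a gene there is given as a description. For ZNF467, leaving out R8 at 0, 0.5 or 2 h does so, with means of 9.94, 9.21 and 9.95 CPM.

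The group of MB468 at 12 h had the highest summed level of these genes. Of the 226 members, 154 had their highest group mean there, and in 126 of them each of its 3 libraries exceeded all the other 21. These counts were not made for other genes, so whether they are particular to the members is not known. Against MB468 at 0 h alone, the libraries at 12 h did not overlap for 87.2% of the members. That share was 83.8% over all tested genes with a mean of at least 10 CPM. The summed level of the members was 6650 ± 27.5 TMM CPM (mean ± SD, n = 3) in MB468 at 0 h, 6687 ± 40.1 at 0.5 h, 7147 ± 218 at 2 h and 10284.5 ± 189.6 at 12 h. In R8 the sums were 6038 ± 64.7, 6318 ± 22.5, 6048 ± 67.9 and 6718 ± 45.8. The sum at 12 h in MB468 ranged from 10123.6 to 10493.5 in its 3 libraries and did not overlap with any other group, whereas R8 at 12 h stayed near MB468 at 0 h. The map of all members over the groups shows this column apart from the others.

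**Figure D1:**
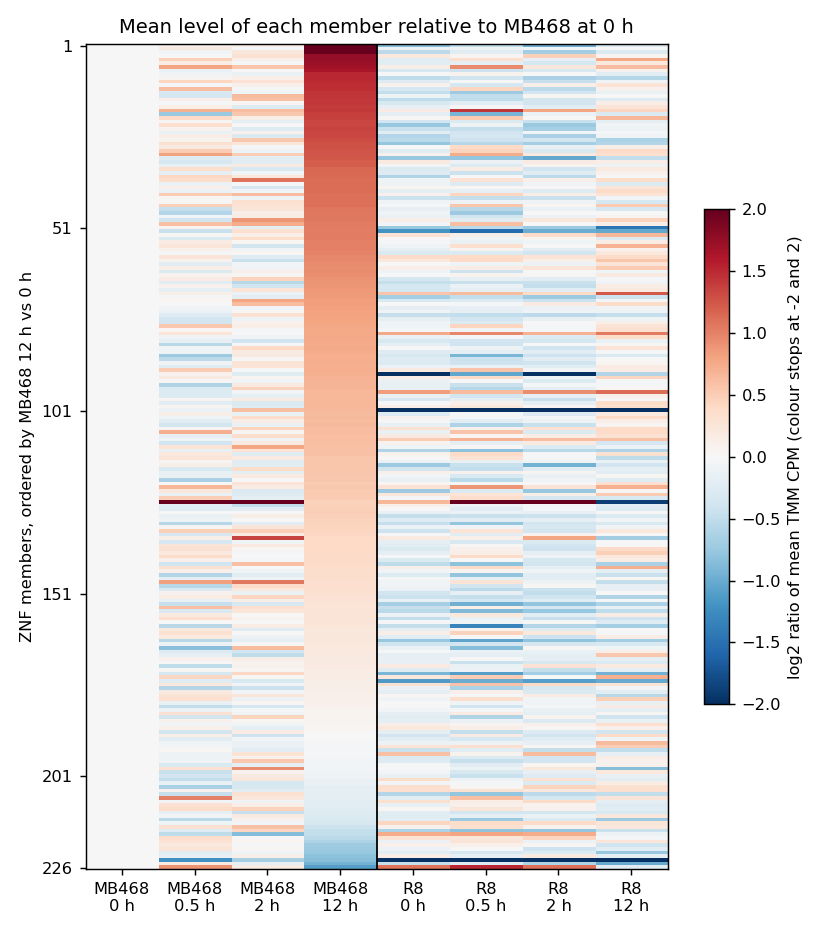
Heat map of the 226 ZNF members (rows, ordered by the MB468 12 h vs 0 h change) over the 8 groups (columns), coloured by the log2 ratio of the group's mean TMM CPM (n = 3) to that of MB468 at 0 h. MB468 at 12 h is red over most of its length, where 168 members were called higher and 19 lower, whereas R8 at 12 h is paler, with 105 and 31.

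Before the change of medium, at 0 h, the question was how the revertant clone differed from its parent. More members were lower than higher in R8: 92 were called lower and 23 higher (edgeR's quasi-likelihood test, Benjamini-Hochberg adjusted p below 0.05 over 14741 genes), with a median log2 fold change of -0.13. Among all genes tested, 27.1% were lower and 26.4% higher. ZNF699, a KRAB protein, was at 20.9, 24.7 and 20.4 TMM CPM in the 3 MB468 libraries and at 2.48, 2.80 and 1.49 in those of R8. The log2 fold change was -3.26 ± 0.14 (SE; adjusted p = 3.4e-22), and its level in R8 remained between 1.38 and 2.15 at the later times. ZNF469, which is mutated in brittle cornea syndrome, was at 93.8, 91.0 and 104 TMM CPM in MB468 and at 14.2, 19.1 and 15.5 in R8 (-2.57 ± 0.13, adjusted p = 1.9e-12). ZNF788 was at 22.01, 23.7 and 22.1 in MB468 and at 4.88, 4.13 and 4.37 in R8 (-2.33 ± 0.11, adjusted p = 2.4e-21). For these 3 genes every library of R8 lay below the lowest of MB468. Since ZNF699 and ZNF788 passed the threshold through the MB468 libraries, their differences are a description. In the other direction the largest differences were smaller: ZNF467 was at 6.71, 6.73 and 6.92 against 13.0, 16.7 and 13.5 TMM CPM (1.08 ± 0.13, adjusted p = 3.1e-09), and ZNF12 and ZNF704 were higher in R8 by 0.84 and 0.76 on the log2 scale. ZNF467 does not reach the threshold without the libraries of R8 at 0 h, so that its difference is a description.

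Scaling the libraries to the ERCC spike-in RNAs instead of the genes moved the median of the expressed genes at 0 h to -0.32, and 157 members were then called lower and 4 higher. In what follows, a change is relative to the bulk of the genes, and ERCC-scaled counts are given for the main comparisons.

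The samples at 0.5 h are the earliest after the change of medium. In MB468, 47 members rose and 64 fell relative to 0 h, against 17.6% and 16.4% of all genes tested and a median log2 fold change of the members of -0.01. In R8, 60 rose and 53 fell, against 17.4% and 16.3%, with a median of 0.01. The members thus changed in both directions. In both lines 84 members were called, 42 higher and 42 lower (18.6% each, against 16.4% and 14.1% of the other expressed genes), none in opposite directions (0.237% of the other genes), and the log2 fold changes correlated across the 226 genes with r = 0.875 (0.877 across the other expressed genes; genes are not independent replicates). A difference between the lines (response of R8 minus response of MB468) was called for 4 members above and 1 below 0, against 1.2% and 1.7% of all genes. With ERCC scaling, 12 members were called higher and 71 lower in MB468, and 33 and 12 in R8. Of all genes with a mean of at least 10 CPM, 3.03% were then higher and 23.1% lower in MB468, and 9.61% and 5.62% in R8.

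ZNF750, a transcription factor of epidermal differentiation (chromosome 17, 82829434 to 82840022, minus strand, GRCh38), had the largest rise of all members in both lines at 0.5 h. In MB468 it was at 18.7, 15.8 and 21.7 TMM CPM at 0 h and at 103, 87.3 and 109.8 at 0.5 h. It stood at 159, 134 and 141 at 2 h and was back at 25.03, 23.7 and 28.8 by 12 h. The log2 fold changes against 0 h were 2.44 ± 0.21 (adjusted p = 6.6e-08), 2.98 ± 0.21 (adjusted p = 1.3e-08) and 0.50 ± 0.23 (adjusted p = 0.061). In R8 its 0 h values of 33.9, 34.9 and 20.2 increased to 171, 133 and 130.4 at 0.5 h, were 77.5, 91.6 and 54.0 at 2 h, and ended at 4.17, 5.66 and 5.44 at 12 h, below every library of the other groups. The rise at 0.5 h did not differ detectably between the lines (difference -0.17 ± 0.29, adjusted p = 0.88), whereas at 2 h (-1.65 ± 0.29, adjusted p = 0.0019) and at 12 h (-3.07 ± 0.37, adjusted p = 1.5e-06) the response of R8 was the lower.

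ZNF217, a gene amplified in breast cancers whose product works with the CoREST and CtBP corepressors (chromosome 20, 53567071 to 53609907, minus strand), rose early as well, but by different amounts. In MB468 it went from 110.2, 109 and 101 TMM CPM at 0 h to 188, 188 and 192 at 0.5 h and 213, 233 and 217 at 2 h, and was at 140.3, 131 and 133 at 12 h. In R8 it went from 99.4, 106 and 98.7 to 128, 125 and 133 at 0.5 h and was at 95.6, 95.6 and 108 at 2 h and 72.8, 83.6 and 74.5 at 12 h. The R8 response was lower at 0.5 h (-0.48 ± 0.07, adjusted p = 1.6e-05; -0.22 and not called with ERCC scaling), 2 h (-1.07 ± 0.07, adjusted p = 1e-14) and 12 h (-0.73 ± 0.07, adjusted p = 1.7e-11).

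ZNF703, a corepressor amplified in luminal breast cancer, took another course. Its MB468 levels were 9.90, 9.67 and 7.91 TMM CPM at 0 h, 13.6, 14.4 and 16.8 at 0.5 h, 13.8, 14.1 and 14.1 at 2 h and 22.4, 23.9 and 26.6 at 12 h. In R8 they were 9.10, 11.4 and 10.2, then 25.1, 22.1 and 26.6 at 0.5 h, 17.8, 17.4 and 12.3 at 2 h and 11.8, 11.5 and 13.9 at 12 h. R8 thus had its highest level at 0.5 h and MB468 at 12 h. The response of R8 was the higher at 0.5 h (difference 0.60 ± 0.17, adjusted p = 0.034, a call lost when any of 8 single libraries was left out). At 12 h it was the lower (-1.11 ± 0.16, adjusted p = 4.3e-07).

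Several other early changes were called in both lines. ZNF680 rose at 0.5 h by 1.001 ± 0.10 in MB468 and 0.82 ± 0.11 in R8 on the log2 scale. ZNF652, a partner of the corepressor CBFA2T3, rose by 0.72 in both lines, and ZNF165, a cancer-testis antigen, by 0.78 and 0.83. ZNF469 fell by 1.24 ± 0.12 and 1.38 ± 0.17, ZNF551 by 0.82 and 0.72, and ZNF574 by 0.76 and 0.75. ZNF574 was at 30.8, 31.1 and 32.0 TMM CPM in MB468 at 0 h, at 17.5, 18.1 and 20.7 at 0.5 h, and rebounded to 44.03, 48.3 and 43.6 at 2 h and 80.9, 78.2 and 85.2 at 12 h. ZNF783 fell most in R8 after ZNF469, by 0.83 ± 0.11. ZNF467 rose at 0.5 h by 0.88 in MB468 and 0.43 in R8. Its mean is 9.21 CPM without R8 at 0.5 h, below the threshold, so that its rise in R8 is a description. The lines differed in ZNF788, which rose in R8 by 1.28 ± 0.12 with a value of 0.09 ± 0.09 in MB468 (difference 1.19 ± 0.15, adjusted p = 4.8e-07). ZNF488 fell in MB468 by 0.52 and was at 0.06 in R8 (difference 0.57).

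**Figure D2:**
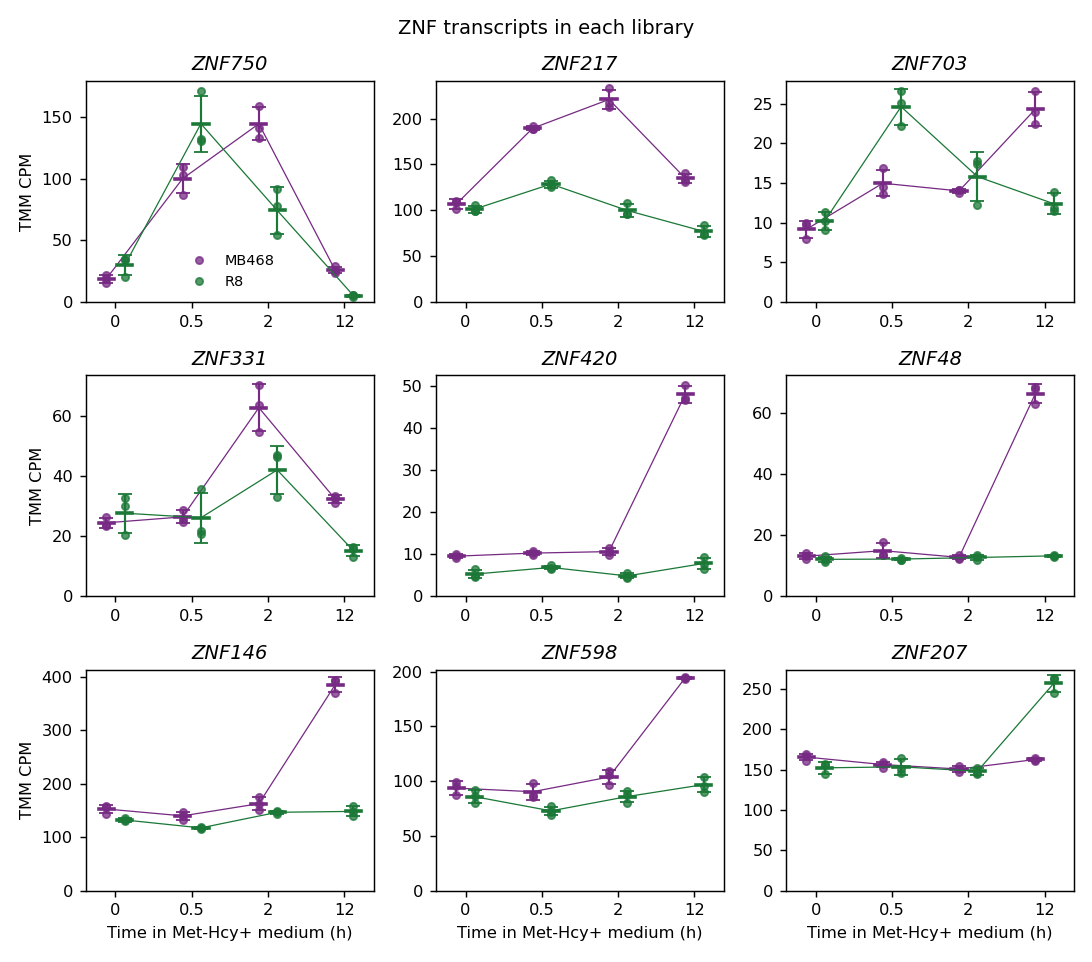
TMM CPM of 9 ZNF members against time in Met-Hcy+ medium (h), with 1 point per library, the horizontal bars at the group mean and the error bars giving the SD (n = 3), for MB468 and R8. ZNF750 and ZNF217 peak early, ZNF420, ZNF48, ZNF146 and ZNF598 rise in MB468 at 12 h, and ZNF207 rises in R8 at 12 h.

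By 2 h the lines had diverged in how many members changed. In MB468 55 members were higher than at 0 h and 34 lower, against 8.88% and 7.47% of all genes. In R8 3 were higher (ZNF750, ZNF703 and ZNF469) and 3 lower (ZNF627, ZNF746 and ZNF395), against 2.52% and 1.85%. Of these 6, the calls of ZNF395, ZNF469, ZNF627 and ZNF746 were each lost when R8 replicate 2 at 2 h was left out, which leaves 2 members called. The difference between the lines was above 0 for 8 and below 0 for 32 members, against 2.19% and 2.88% of all genes. Without the MB468 library that stood apart, MB468 had 41 members higher and 31 lower, and the difference was above 0 for 8 and below 0 for 25. The split of directions depended on the scaling: relative to the ERCC spike-ins, the median of all expressed genes in MB468 at 2 h was -0.42, 9 members were called higher and 136 lower, and the difference between the lines was above 0 for 22 and below for 2. Of all genes with a mean of at least 10 CPM, 1.53% were then higher and 81.5% lower in MB468. The difference was above 0 for 7.33% of them and below for 0.556%.

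Relative to the other genes, 31 of 94 members on chromosome 19 were higher in MB468 at 2 h and 11 lower (median 0.15), against 24 and 23 of 131 on other chromosomes (median -0.04). Without the library that stood apart these were 22 and 10 on chromosome 19 and 19 and 21 elsewhere. ZNF331, an imprinted KRAB gene of chromosome 19, was at 23.3, 26.5 and 23.7 TMM CPM at 0 h and at 63.6, 54.6 and 70.2 at 2 h, above all of its other libraries (1.36 ± 0.20, adjusted p = 7.2e-05). In R8 it was at 32.6, 30.2 and 20.3 at 0 h and at 46.3, 46.9 and 33.0 at 2 h, a change that was not called (0.60 ± 0.19, adjusted p = 0.11), nor was the difference between the lines (-0.76 ± 0.28, adjusted p = 0.15). ZNF14, a KRAB member whose promoter is printed above, was at 7.81, 7.60 and 9.33 TMM CPM at 0 h and at 16.4, 19.05 and 17.2 at 2 h in MB468 (1.10 ± 0.11, adjusted p = 1.3e-10), and remained at 19.6, 17.2 and 17.1 at 12 h. In R8 it was at 7.08, 7.33 and 8.79 and then at 8.34, 9.70 and 8.44, and the response was lower than in MB468 (-0.88 ± 0.15, adjusted p = 0.00011). ZNF823 was higher in MB468 by 0.78 ± 0.11, with a difference of -1.0 ± 0.17 in R8 (adjusted p = 4.7e-05; -0.62 and not called with ERCC scaling). Its mean over all libraries passes 10 CPM through MB468 at 2 or 12 h, so that its rise is a description. Falls at 2 h in MB468 were led by ZNF488 (-0.90 ± 0.09), ZNF469 (-0.66 ± 0.12) and ZNF260 (-0.56 ± 0.07), each with a higher response in R8, by 0.92, 1.22 and 0.59.

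The widest change was that of MB468 at 12 h. Of the 226 members 168 were higher than at 0 h and 19 lower, with a median log2 fold change of 0.57 and 57 members raised at least 2-fold, whereas 36.1% of all genes tested were higher and 34.7% lower. Among the 9302 other genes with a mean of at least 10 CPM the shares were 41.9% and 38.7%, against 74.3% and 8.41% of the members, so that the shares differed in direction more than in the total called. Called rises of at least 2-fold numbered 496 among these other genes and falls 451, against 57 and 1 among the members. Among the other expressed genes with a GC content in the range of the middle members, 43.9% were higher and 38.2% lower. With ERCC scaling 116 members were higher and 27 lower, with a median of 0.33. Of all genes with a mean of at least 10 CPM, 18.8% were then higher and 42.9% lower. The members' median lay 0.563 above that of all genes. Scaling moves all genes of a library together, so this distance had to stay nearly the same and is no check of the scaling. The 207 members that reach 10 CPM in the 6 libraries at 0 h alone held 149 that were higher and 19 lower, and the 210 that reach it in the 21 libraries other than MB468 at 12 h held 152 and 19.

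**Figure D3:**
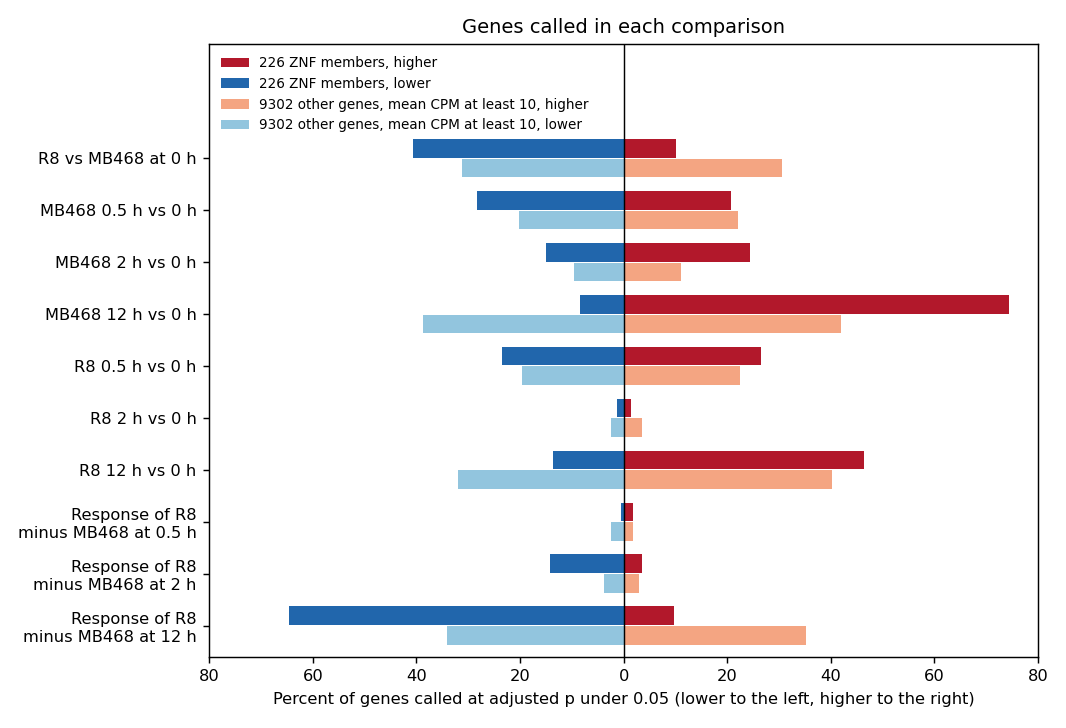
Percent of the 226 ZNF members (dark bars) and of the 9302 other genes with a mean of at least 10 CPM (pale bars) called lower (left) or higher (right) in each comparison at an adjusted p below 0.05 (edgeR). In MB468 at 12 h 74.3% of the members were higher, against 41.9% of the other genes.

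ZNF420, a KRAB protein that restrains p53 (chromosome 19, 37007857 to 37130368, plus strand), rose most. It was at 9.03, 10.1 and 9.51 TMM CPM in MB468 at 0 h, at most 11.5 in any library at 0.5 and 2 h, and at 50.2, 46.7 and 47.0 at 12 h (2.33 ± 0.10, adjusted p = 5.1e-23). In R8 it was at 4.81, 4.62 and 6.44 at 0 h and at 6.45, 9.26 and 7.72 at 12 h (0.57 ± 0.12, adjusted p = 0.0001). All 3 libraries of MB468 at 12 h were thus far above the other 21, and without them its mean was 7.84 CPM, below the threshold.

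ZNF48 (chromosome 16, 30378106 to 30400108, plus strand) was the sharpest case of a rise in MB468 that R8 did not share. Its levels were 13.3, 14.1 and 12.2 TMM CPM in MB468 at 0 h and 67.9, 63.0 and 68.5 at 12 h (2.33 ± 0.08, adjusted p = 3.5e-26). In R8 they were 11.9, 13.1 and 11.4 at 0 h and 13.3, 12.9 and 13.7 at 12 h (0.13 ± 0.09, adjusted p = 0.2), and the difference between the lines was -2.20 ± 0.12 (adjusted p = 7.5e-19). ZNF461, a KRAB gene (chromosome 19, 36636618 to 36666853, minus strand), rose from 7.26, 6.73 and 10.0 to 35.7, 34.4 and 32.9 TMM CPM (2.13 ± 0.12) and in R8 was at 5.19, 5.75 and 5.75 and then at 5.90, 6.11 and 7.55. Without MB468 at 12 h its mean was 6.95 CPM, and that of ZNF628 was 8.57 CPM. ZNF628 rose by 1.77 ± 0.11 in MB468 with a value of -0.14 ± 0.12 in R8 (difference -1.91 ± 0.16, adjusted p = 2.1e-13).

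Among abundant members, ZNF146, which consists almost wholly of zinc fingers (chromosome 19, 36214602 to 36238771, plus strand), was at 144, 158 and 157 TMM CPM in MB468 at 0 h and at 393, 394 and 369.6 at 12 h (1.33 ± 0.05, adjusted p = 2.1e-25). In R8 it was at 132, 129.7 and 136 and at 140.0, 158 and 148 (0.16 ± 0.05, adjusted p = 0.0039). ZNF639 rose in both lines, by 1.75 ± 0.06 in MB468 and 1.003 ± 0.06 in R8. The falls at 12 h in MB468 were fewer and smaller. ZNF467 went from 6.71, 6.73 and 6.92 to 3.20, 2.47 and 3.82 TMM CPM (-1.07 ± 0.15) and fell in R8 too, from 13.0, 16.7 and 13.5 to 5.62, 6.11 and 5.89 (-1.29 ± 0.13). Its fall in R8 starts from the group at 0 h, which it needs to pass the threshold, and is a description. ZNF117 was lower by 0.95 ± 0.10 and ZNF469 by 0.85 ± 0.12 on the log2 scale in MB468, and ZNF469 ended in R8 at 3.85, 3.10 and 4.19 TMM CPM (-2.11 ± 0.19).

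In R8 at 12 h, 105 members were higher than at 0 h and 31 lower, with a median log2 fold change of 0.17, against 30.2% and 31.1% of all genes tested and 40.2% and 31.9% of the other expressed genes. Among the other expressed genes with a GC content in the range of the middle members, 46.7% were higher and 26.6% lower. The shares of the members were 46.5% and 13.7%, so that they differed from these genes in the falls and not in the rises. With the GC and length offset 90 members were higher and 36 lower, with a median of 0.10. With ERCC scaling 58 were higher and 18 lower, against 24.2% and 19.3% of all genes with a mean of at least 10 CPM. Called rises of at least 2-fold were found for 2 members, ZNF788 and ZNF639, and falls for 3. Among the 9302 other expressed genes these numbered 56 and 413. ZNF788, which the annotation does not hold, rose from 4.88, 4.13 and 4.37 to 12.9, 16.9 and 15.5 TMM CPM (1.74 ± 0.11) and in MB468 from 22.01, 23.7 and 22.1 to 39.1, 38.4 and 33.1 (0.70 ± 0.08). ZNF440 followed with 0.76 ± 0.09. The largest falls were those of ZNF750 (-2.58 ± 0.29), ZNF469 and ZNF467.

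The difference between the lines at 12 h was below 0 for 146 members and above 0 for 22, with a median of -0.44, against 30.3% and 26.2% of all genes. With ERCC scaling it was below 0 for 62 and above for 26. Of the 168 members higher in MB468, 136 had a lower response in R8, and the MB468 response was the larger of the 2 for 181 of 226 members (80.1%, against 50.04% of the other expressed genes). Both lines raised 91 members (40.3%, against 24.03% of the other genes) and lowered 10 (4.42%, against 19.7%). Of the 70 members called in MB468 alone, 57 had a called difference between the lines, and of the 19 called in R8 alone, 17 had one. Such counts within called genes were not made for the other expressed genes, of which 69.2% had a called difference. The log2 fold changes correlated across the members with r = 0.379 at 12 h, against 0.482 across the other expressed genes.

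**Figure D4:**
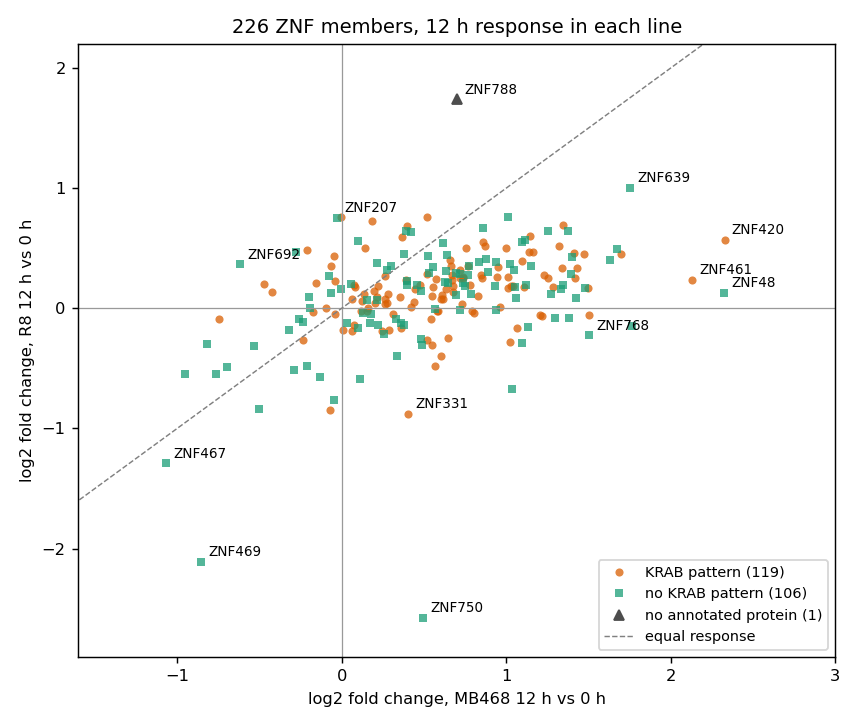
Log2 fold change at 12 h against 0 h in R8 (vertical) plotted against that in MB468 (horizontal) for the 226 ZNF members, 1 point per gene, marked by KRAB pattern, with a dashed line where both lines respond equally. For 181 members the MB468 response is the larger, so most points lie below the line, and ZNF750 and ZNF48 lie farthest below it.

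Opposite calls at 12 h were made for 16 members. ZNF217, ZNF274, ZNF319, ZNF426, ZNF513, ZNF644, ZNF646, ZNF672, ZNF713, ZNF768, ZNF83, ZNF846 and ZNF862 rose in MB468 and fell in R8, and ZNF330, ZNF692 and ZNF93 did the reverse. At 7.08% they were a smaller share of the members than the opposite calls were of the other expressed genes (15.6%). ZNF768 was at 44.6, 45.4 and 45.6 TMM CPM in MB468 at 0 h and at 127, 124 and 134 at 12 h (1.51 ± 0.06, adjusted p = 1e-23). In R8 it was at 45.0, 47.8 and 43.5 and at 42.8, 35.04 and 38.6 (-0.22 ± 0.07, adjusted p = 0.0033), and the libraries at 0 and 12 h did not overlap in either line. ZNF513 was at 12.5, 13.2 and 13.7 and at 28.4, 26.5 and 25.7 in MB468 (1.03 ± 0.08), and at 7.04, 7.82 and 8.56 and at 4.76, 4.46 and 5.31 in R8 (-0.67 ± 0.11). ZNF274 is the KRAB protein known to bring SETDB1 to the 3′ ends of ZNF genes. It was at 59.6, 55.2 and 59.6 TMM CPM in MB468 at 0 h and at 89.9, 88.9 and 86.0 at 12 h (0.60 ± 0.05), against 61.5, 61.5 and 59.4 and then 49.1, 46.2 and 43.1 in R8 (-0.40 ± 0.05). In the reverse group, ZNF692 was at 29.0, 27.3 and 27.1 and then at 18.99, 17.5 and 17.9 in MB468 (-0.62 ± 0.08), and at 24.2, 29.4 and 23.5 and then at 36.7, 28.4 and 34.1 in R8 (0.37 ± 0.08), where 1 library of each time overlapped.

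Between 2 and 12 h, 158 members rose and 29 fell in MB468 (34.6% and 35.1% of all genes), with a median log2 change of 0.48, and 119 rose and 39 fell in R8 (30.7% and 31.8%), with a median of 0.19. With ERCC scaling 168 rose and 16 fell in MB468, and 87 and 18 in R8. Of all genes with a mean of at least 10 CPM, 42.9% then rose and 19.2% fell in MB468, and 30.0% and 18.4% in R8. Without the MB468 library that stood apart, 161 rose and 28 fell in MB468. ZNF48, ZNF420 and ZNF461 led the rises in MB468, and ZNF750 (-2.48 ± 0.20), ZNF467 (-1.23 ± 0.15) and ZNF254 (-1.01 ± 0.11) the falls. In R8 ZNF788 (1.75 ± 0.11), ZNF639 (0.94 ± 0.06) and ZNF700 (0.90 ± 0.10) rose most and ZNF750 (-3.90 ± 0.26), ZNF469 (-2.67 ± 0.18) and ZNF331 (-1.48 ± 0.21) fell most. ZNF331, whose rise at 2 h was called in MB468 alone, was at 33.5, 31.1 and 32.7 TMM CPM in MB468 at 12 h and at 15.8, 13.2 and 16.6 in R8.

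Of the 8 members on the list for ribosomes and RNA, which as written holds ZNF207 and ZNF638, known for other roles as well, 4 rose and 1 fell in MB468 at 12 h, 7 rose and none fell in R8, and the difference between the lines was above 0 for 5 and below for 2. Of all 226 members, 74.3% rose and 8.41% fell in MB468 and 46.5% and 13.7% in R8. The difference was above 0 for 9.73% and below for 64.6%. ZNF598, the ubiquitin ligase that marks collided ribosomes (chromosome 16, 1997654 to 2009821, minus strand), was at 98.9, 87.0 and 95.3 TMM CPM in MB468 at 0 h and at 195, 194 and 193 at 12 h (1.05 ± 0.06, adjusted p = 2.7e-17). In R8 it was at 86.1, 91.96 and 79.7 and at 104, 90.5 and 96.0 (0.17 ± 0.06, adjusted p = 0.014). ZNF593 (chromosome 1, 26169908 to 26170873, plus strand) followed the same course, from 33.7, 21.7 and 28.2 to 76.6, 74.2 and 80.9 in MB468 (1.48 ± 0.12, adjusted p = 1.1e-09) and from 29.5, 30.7 and 29.0 to 34.3, 33.3 and 33.0 in R8 (0.17 ± 0.13, adjusted p = 0.25), with the limit of its antisense partner given above.

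ZNF207, a protein that loads the checkpoint factor BUB3 onto kinetochores, went the other way. It was at 167, 169 and 161 TMM CPM in MB468 at 0 h and at 162, 161 and 165 at 12 h (-0.03 ± 0.04, adjusted p = 0.58), and in R8 at 156, 144 and 156 and at 263, 262 and 244 (0.75 ± 0.04, adjusted p = 2e-18). Its 3 libraries of R8 at 12 h were above all the other 21. ZNF638, a DNA-binding protein that works with the HUSH complex, rose more in R8 (0.56 ± 0.05) than in MB468 (0.10 ± 0.05, adjusted p = 0.047), as did ZNF346, which binds double-stranded RNA (0.64 ± 0.07 and 0.39 ± 0.06). ZNF330, a nucleolar protein, rose by 0.47 ± 0.07 in R8 and fell by 0.27 ± 0.07 in MB468. ZNF622, another 60S subunit factor, was at -0.07 ± 0.05 in MB468 and 0.13 ± 0.06 in R8, and ZNF326, a subunit of the DBIRD complex in splicing, at -0.01 ± 0.06 and 0.16 ± 0.07, both called in R8 alone.

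Of the 11 transcription factors with named roles, 8 rose and 1 fell in MB468 at 0.5 h and 9 rose and none fell at 12 h. In R8, 8 rose and none fell at 0.5 h, and 8 rose and 2 fell at 12 h, with a lower response than MB468 for 8 and a higher one for none. Of all 226 members, 20.8% rose and 28.3% fell in MB468 at 0.5 h, and 26.5% and 23.5% in R8. At 12 h these shares were 74.3% and 8.41% in MB468 and 46.5% and 13.7% in R8. A lower response in R8 was called for 64.6%. ZNF165 rose by 1.68 ± 0.08 in MB468 at 12 h and 0.49 ± 0.09 in R8, and 20.1% of its exon bases lie over a gene of the opposite strand. ZNF148 rose by 1.37 ± 0.05 and 0.65 ± 0.05, ZNF281 by 0.89 ± 0.05 and 0.30 ± 0.06, and ZNF24 by 0.46 ± 0.05 and 0.20 ± 0.05. ZNF746 (PARIS), a repressor of the gene for PGC-1α, was lower in R8 at 0 h by 0.78 ± 0.08 on the log2 scale and rose by 1.23 ± 0.07 and 0.28 ± 0.08. ZNF143, an activator bound at many promoters, rose in both lines by amounts that were not told apart (0.42 ± 0.08 and 0.63 ± 0.08, difference 0.22 ± 0.11, adjusted p = 0.11), and so did ZNF652 (0.61 ± 0.08 and 0.54 ± 0.08, adjusted p = 0.62). ZNF395 was at 0.03 ± 0.05 and -0.12 ± 0.05, not called in either line.

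Of the 9 members of chromatin corepressor complexes, 8 rose and 1 fell in MB468 at 12 h, 4 rose and 3 fell in R8, and all 9 had a lower response in R8. The shares over all 226 members were 74.3% and 8.41% in MB468, 46.5% and 13.7% in R8, and 64.6% with a lower response in R8. ZNF318 rose by 1.26 ± 0.05 and 0.64 ± 0.05 in the lines and ZNF532 by 0.86 ± 0.05 and 0.67 ± 0.05. ZNF532, ZNF592 and ZNF687 are partners in a complex with ZMYND8, and the latter pair rose in MB468 by 0.40 ± 0.05 and 0.36 ± 0.06, with values of 0.19 ± 0.05 and -0.12 ± 0.06 in R8. The SUMO ligase ZNF451 rose by 0.78 ± 0.07 and 0.35 ± 0.07. ZNF462 rose by 0.72 ± 0.07 in MB468 with a value of -0.02 ± 0.07 in R8. ZNF644, a partner of the methyltransferase G9a, rose by 0.38 ± 0.05 in MB468 and fell by 0.14 ± 0.06 in R8. ZNF335 was the one that fell in both, by 0.29 ± 0.06 and 0.51 ± 0.06. These role lists were written from background knowledge of the members and the counts describe them without a test.

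By protein pattern, 92 of the 119 KRAB members rose and 5 fell in MB468 at 12 h (median 0.58), and 75 of the 106 without it rose and 14 fell (median 0.53). By place, 70 of 94 on chromosome 19 rose and 7 fell, and 97 of 131 elsewhere rose and 12 fell. Members with and without each feature thus rose for the most part. So did other families and fainter members: of 55 expressed ZBTB, ZSCAN, ZKSCAN and ZFP genes, 44 rose and 5 fell (median 0.73), and of the 202 ZNF genes that were tested but lay below 10 CPM, 121 rose and 20 fell (median 0.48). In R8, 52 KRAB members rose and 8 fell, and 52 without it rose and 23 fell.

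The genes of the KRAB repression machinery, none of which is a ZNF gene, were taken as a list of their own. Of 21 tested, 3 rose and 11 fell in MB468 at 12 h (median -0.12; 41.9% and 38.7% of the other expressed genes), 14 rose and 4 fell in R8, and the response was higher in R8 for 15 and lower for 1. Of the other expressed genes, 40.2% rose and 31.9% fell in R8, and the response was higher in R8 for 35.1% and lower for 34.1%. TRIM28 had means of 504 ± 13.6 TMM CPM (SD, n = 3) in MB468 at 0 h and 310 ± 4.03 at 12 h, a fall of 0.70 on the log2 scale, and of 459 ± 17.7 and 529.5 ± 21.9 in R8, a rise of 0.20. CBX3 and CBX5, which encode HP1 proteins, fell in MB468 by 0.54 and 0.92. SETDB1 rose in both lines, by 0.67 and 0.33.

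A stretch of chromosome 19 from 35000001 to 40000000 was chosen after its values were seen. It holds 12 members: ZNF146, ZNF566, ZNF260, ZNF529, ZNF461, ZNF567, ZNF829, ZNF568, ZNF420, ZNF569, ZNF793 and ZNF607. All 12 were called lower in R8 than in MB468 at 0 h, with log2 fold changes of -1.21 to -0.21 (median -0.60), whereas of the other 50 expressed genes there 25 were lower and 5 higher (median -0.11). All 12 rose in MB468 at 12 h, by 0.16 to 2.33 (median 1.09), against 22 of the 50 that rose and 21 that fell (median 0.01). In R8, 7 of the 12 rose and none fell (median 0.24), against 13 of the 50 that rose and 21 that fell (median -0.03). The difference between the lines was called for 10 of the 12, each with a lower response in R8. Of the 50, 22 had a lower and 15 a higher response in R8, and of all 226 members 146 had a lower one. ZNF420 and ZNF461 pass the threshold through MB468 at 12 h.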

How the data were processed

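RNA from 24 samples of MB468 and MB468res-R8 cells was sequenced from TruSeq v2 libraries with added ERCC spike-in RNAs. The deposited counts per gene were made by the authors from reads aligned to GRCh38 with HISAT2 2.1.0 and counted with featureCounts (Subread 1.5.3), per the submitters' processing notes. The libraries do not keep the strand, so overlapping antisense genes cannot be separated. A normalised matrix and a table of the authors' own DESeq2 comparisons (fold changes and p-values) were not used.

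Genes with enough counts (filterByExpr, minimum 10, total 15) left 14741, and spike-ins stayed out of the library sizes. One edgeR 4.0.16 quasi-likelihood model (R 4.3.3, TMM, robust) held the 8 group means, with 12 contrasts and Benjamini-Hochberg adjustment over all genes. With 3 samples against 3, an exact permutation test cannot go below p = 0.1. On simulated counts for MB468 at 12 h against 0 h (14465 genes, 198 changed), 80.8% of genes changed by 1 and 78.8% of those changed by 0.5 on the log2 scale were recovered, and 3.07% of calls were false. Few genes were changed there, in balanced directions, whereas 70.8% of all genes tested were called in the data. These rates therefore need not hold for the data.

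The members and lists were chosen with earlier results of these data known. Genes were named if in a role list, among the 3 largest called changes per direction (groups not overlapping), among the 3 highest per kilobase or nearest the threshold, or called in opposite directions at 12 h; those called at 0.5 h (140) or changed at least 2-fold (78) are given mainly as counts. ZNF706 and the members listed for lacking a finger pattern or for lying in the stretch of chromosome 19 were added after their values were seen. KRAB patterns (at least 10 of 14 key positions within 28 residues) and C2H2 patterns were searched in GENCODE proteins, positions follow GENCODE on GRCh38, and shared sequence was counted in 100-base windows. Same-numbered replicates did not deviate together (mean r -0.020 over 84 pairs, against 0.011 over 168 pairs of unlike number; for R8 at 2 h and 0 h alone 0.277 over 3 pairs, the lowest of them -0.029), so the block is an alternative only. Other alternatives were DESeq2 1.42.0 size factors and its test, ERCC scaling, filters, a GC and length offset, other thresholds and leaving out each library.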

Additional observations from a re-analysis of the deposited data

Results flagged for a closer look

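The results below were picked out because the test of the difference between the responses of the 2 lines (R8 minus MB468, log2 scale, edgeR's quasi-likelihood test) was passed. At 0.5 h it was passed by 5 members. ZNF788 (1.19), ZNF703 (0.60) and ZNF488 (0.57) had the higher response in R8, and ZNF217 (-0.48) the lower one.

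At 2 h 40 members differed, led upward by ZNF469 (1.22), ZNF488 (0.92) and ZNF260 (0.59) and downward by ZNF750 (-1.65), ZNF217 (-1.07) and ZNF823 (-1.0). Without the MB468 library rich in RN7SK, 33 did.

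At 12 h 168 members differed. ZNF788 (1.04), ZNF692 (0.99) and ZNF207 (0.78) had the most positive differences, and ZNF750 (-3.07), ZNF48 (-2.20) and ZNF628 (-1.91) the most negative.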

How the results depend on the processing

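In the 70 tests of named members, picked as the largest called changes, no alternative turned a direction. That choice made a turn unlikely, so this says little of the other members. With 1 library left out at a time, 5 of the 70 tests lost their call at least once: ZNF395, ZNF469, ZNF627 and ZNF746 in R8 at 2 h, and ZNF703 in the difference at 0.5 h. ERCC scaling ended the calls of ZNF395, ZNF627 and ZNF746 in R8 at 2 h, of ZNF217 in the difference at 0.5 h (-0.22) and of ZNF823 in the difference at 2 h (-0.62), and a threshold of 0.01 those of ZNF395, ZNF469, ZNF627, ZNF746 and ZNF703 just named.

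ERCC scaling gave 145 members called in MB468 at 2 h, 45, 3 and 76 in R8 at 0.5, 2 and 12 h, 105 in R8 between 2 and 12 h, and 3, 24 and 88 with a difference at 0.5, 2 and 12 h. Its medians were -0.45 at 0 h, -0.22, -0.39 and 0.33 in MB468 at 0.5, 2 and 12 h, 0.051 and -0.069 in R8 at 0.5 and 2 h, 0.31, 0.32 and -0.18 for the differences, and 0.66 and 0.26 between 2 and 12 h. The cause was not tested.

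Taking members from 20 CPM, which leaves fewer of them, gave 69 called at 0 h, 63, 49 and 104 in MB468, 61 and 81 in R8 at 0.5 and 12 h, 3, 23 and 95 with a difference, and 108 and 90 between 2 and 12 h, with a median of -0.042 in MB468 at 0.5 h. From 5 CPM the median in MB468 at 12 h was 0.53. Members chosen on the 0 h libraries alone, a choice made after seeing the data, had a median of -0.057 in MB468 at 0.5 h, those chosen without MB468 at 12 h, also chosen then, one of -0.041, and leaving out members with shared sequence, also chosen then, moved no count by over 1.5 times. A threshold of 0.01 left 58 called in MB468 at 2 h, 2 in R8 at 2 h, and 3 and 26 differences at 0.5 and 2 h. Without the low-count filter 10 were called in R8 at 2 h and 8 differed at 0.5 h. The GC and length offset gave 12 and 10, with medians of -0.053 in MB468 at 0.5 h, 0.10 in R8 at 12 h and 0.42 and 0.13 between 2 and 12 h, and in R8 at 12 h 90 members higher and 36 lower.

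The replicate block kept 187 members called in MB468 at 12 h, 136 in R8 and 168 differences, and 111, 88, 111 and 5 in the earlier comparisons with 0 h. The pairing by number ended the call of ZNF746 in R8 at 2 h and no other named one. With the GC and length offset added to the block, 11 were called in R8 at 2 h and 10 differed at 0.5 h, with medians of -0.053 in MB468 at 0.5 h, 0.10 in R8 at 12 h, and 0.42 and 0.13 between 2 and 12 h.

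Leaving out 1 library at a time gave 177 to 188 members called in MB468 at 12 h, 119 to 139 in R8 and 155 to 172 differences (median -0.46 to -0.36, lowest in size without R8 replicate 1 at 12 h). The few calls of R8 at 2 h ranged from 2, without R8 replicate 2 at 2 h, to 11, without replicate 3, and the differences at 0.5 h from 3, without MB468 replicate 2 or R8 replicate 1 at 0 h, to 7. Medians ranged from -0.039 to -0.017 in MB468 at 0.5 h and from 0.18 to 0.23 in R8 between 2 and 12 h.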
